A study of Drosophila melanogaster with 6 samples.

Results

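Flies equalise the output of the X chromosome between the sexes by raising transcription from the single male X. The male-specific lethal complex, built from the proteins of msl-1, msl-2, msl-3, mof and mle together with the noncoding RNAs roX1 and roX2, binds that chromosome, where the acetyltransferase MOF modifies histone H4. The same X dose sets sexual identity. The RNA-binding protein Sex-lethal (Sxl) is made in females, where it blocks translation of msl-2 mRNA and directs the splicing of transformer (tra) mRNA, and the Tra protein in turn directs the female splice form of doublesex (dsx), whose male and female proteins are different transcription factors.

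The members are these 10 genes, and their probe sets were taken as those paired with a single gene symbol that is one of the 10 in the probe-to-gene table. This gave 12 probe sets for 8 genes, of 18769 probe sets tested. Sxl had 3 probe sets, msl-3 and dsx had 2 each, and msl-1, msl-2, mof, mle and tra had 1 each. No probe set was paired with lncRNA:roX1 or lncRNA:roX2 in the table used, so these RNAs were not analysed here. Sxl and mof lie on the X chromosome, msl-1 and msl-2 on 2L, mle on 2R, msl-3 and tra on 3L, and dsx on 3R, per the RefSeq gene table of Release 6 plus ISO1 MT.

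The samples are whole wing imaginal discs, the larval precursors of the adult wing and notum, taken from wall-climbing larvae of the third instar. Discs were pooled, 30 for each condition, and the labels do not give the sex of the larvae. The temperature given is 25 °C for all samples. LID RNAi discs carried the lid k06801 allele and expressed a hairpin against lid from the ubiquitous act5C-Gal4 driver. GFP RNAi discs carried the same driver with a hairpin against GFP, in a w1118 background. The wild type discs are titled as wild type and have no RNAi in the labels, although their background field names w1118 with the act5C-Gal4 driver. Each of the 3 groups has 2 arrays, 6 in all, and the labels do not say whether the 2 came from separate dissections. If they did not, p-values measure technical spread alone. The hairpin strains came from the NIG-FLY stock collection. The lid hairpin and the lid allele occur together, so they cannot be told apart.

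Values are log2 levels from RMA, the array summary method named in the submitters' processing notes, and array medians lay between 6.31 and 6.43. The targeted gene lid (Kdm5) read 8.36 and 8.04 on the LID RNAi arrays, against 10.32 and 10.45 on the GFP RNAi arrays and 10.42 and 10.33 on those of wild type, a difference of -2.19 ± 0.13 (SE, limma adjusted p = 0.0309) against GFP RNAi. With any 1 array left out that difference was -2.35 to -2.02, with adjusted p from 0.0573 to 0.220. All 15 wing disc markers measured of 17 listed, among them vg, nub and ap, were above background in every group. So were all 3 measured fat body markers and all 3 measured trachea markers, so this does not single out the wing disc. Background was set at 4.82, the 95% point of 27 control probe sets for Bacillus subtilis transcripts. Every one of the 12 member probe sets was above it in every group. LID RNAi replicate 2 stood apart most often, as the highest array by at least 1 log2 unit for 132 probe sets, against 5 to 55 for the other arrays.

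For the male-specific lethal complex and most of the sex determination probe sets, levels differed little between the 6 arrays, and no member passed the threshold between any groups. Of the 12 member probe sets, 0 passed an adjusted p of 0.05 (limma, Benjamini-Hochberg over all probe sets) between LID RNAi and GFP RNAi, where 0.469% of all probe sets did (0.165% higher and 0.304% lower), and 0 at an unadjusted p of 0.05, where 12.4% did. The counts were also 0 and 0 between LID RNAi and wild type, against 2.34% (0.852% higher and 1.49% lower) and 16.9% of all probe sets. Between GFP RNAi and wild type they were 0 and 0, against 0.863% (0.437% higher and 0.426% lower) and 11.4%. A single Sxl and a single dsx probe set behaved unlike the other 10, in that their 2 wild type arrays lay far apart, in the same direction. In LID RNAi their gaps were smaller than that of tra.

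**Figure D1:**
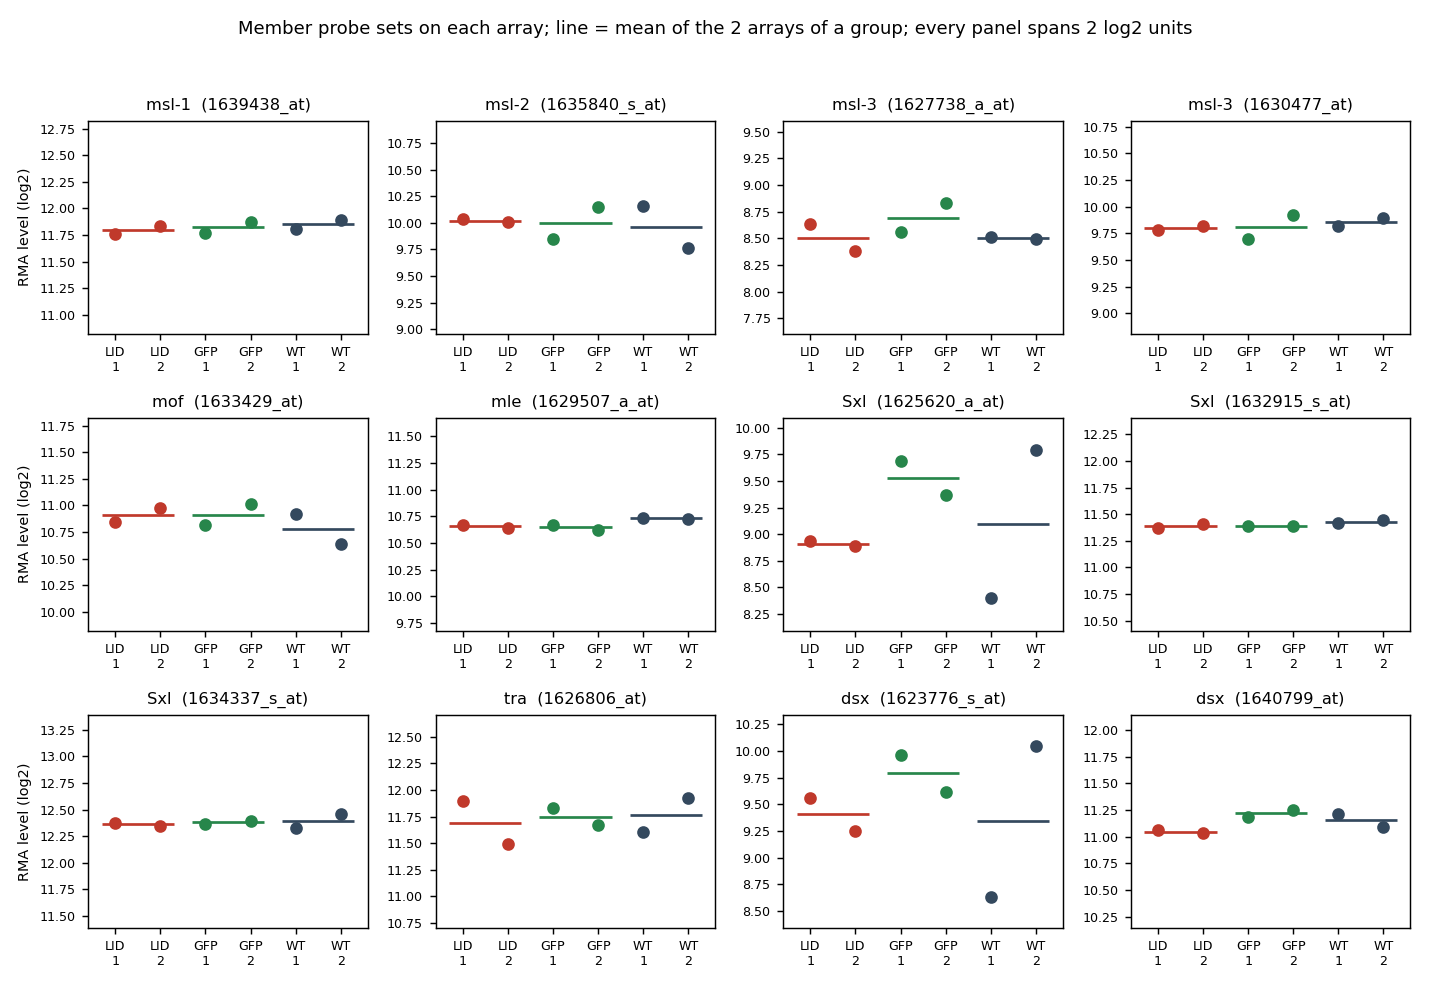
RMA level (log2) of each of the 12 member probe sets on the 6 arrays, with LID RNAi in red, GFP RNAi in green and wild type in dark blue; lines are means of the 2 arrays of a group, and every panel spans 2 log2 units. Sxl 1625620_a_at and dsx 1623776_s_at spread over 1.39 and 1.42 log2 units, and the other 10 probe sets over 0.45 or less.

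The scaffold of the complex is MSL1, which holds the other subunits. The level of msl-1 was 11.76 and 11.83 on the LID RNAi arrays, against 11.77 and 11.88 on the GFP RNAi arrays and 11.81 and 11.89 on those of wild type. The arrays of all 3 groups overlapped. It differed by -0.03 ± 0.08 (SE, n = 2 arrays per group) between LID RNAi and GFP RNAi, with a 95% interval from -0.24 to 0.18, and by -0.06 between LID RNAi and wild type.

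MSL2, the RING finger subunit that finds the X chromosome, is the one whose mRNA Sxl represses in females. Its transcript msl-2 read 10.03 and 10.003 on the LID RNAi arrays, against 9.85 and 10.15 on the GFP RNAi arrays and 10.16 and 9.76 on those of wild type. The wild type arrays were the highest and the lowest of all 6, so the groups overlapped. The difference was 0.02 ± 0.17 (SE) between LID RNAi and GFP RNAi (95% interval -0.44 to 0.48), 0.06 between LID RNAi and wild type and 0.04 between GFP RNAi and wild type.

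MSL3 is the chromodomain subunit that binds methylated chromatin. The msl-3 probe set 1627738_a_at read 8.63 and 8.38 on the LID RNAi arrays, against 8.56 and 8.83 on the GFP RNAi arrays and 8.52 and 8.49 on those of wild type. The other, 1630477_at, read 9.78 and 9.82 on the LID RNAi arrays, against 9.69 and 9.92 on the GFP RNAi arrays and 9.81 and 9.89 on those of wild type. The arrays of GFP RNAi were both above those of wild type for the first probe set, by 0.19 ± 0.14 (SE, limma adjusted p = 0.705), and they overlapped for the second, at -0.04. Between LID RNAi and GFP RNAi the differences were -0.19 and -0.01.

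The acetyltransferase gene mof read 10.85 and 10.98 on the LID RNAi arrays, against 10.82 and 11.01 on the GFP RNAi arrays and 10.92 and 10.64 on those of wild type. Wild type replicate 2 was the lowest array, as for msl-2. LID RNAi and GFP RNAi had means of 10.91 each, with a 95% interval of the difference from -0.35 to 0.35, and LID RNAi differed from wild type by 0.13 ± 0.13 (SE, limma adjusted p = 0.685).

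MLE is the RNA helicase that remodels roX RNA. It had some of the closest replicates among the members, at 10.66 and 10.64 on the LID RNAi arrays, against 10.67 and 10.62 on the GFP RNAi arrays and 10.73 and 10.73 on those of wild type. The wild type arrays were the 2 highest and did not overlap with either RNAi group. The size of this was small, at -0.08 ± 0.07 (SE, limma adjusted p = 0.643) for LID RNAi against wild type and -0.08 ± 0.07 (SE, adjusted p = 0.742) for GFP RNAi against wild type.

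At the top of sex determination, the 3 Sxl probe sets gave different pictures. Probe set 1634337_s_at read 12.38 and 12.35 on the LID RNAi arrays, against 12.37 and 12.39 on the GFP RNAi arrays and 12.33 and 12.45 on those of wild type. Probe set 1632915_s_at read 11.37 and 11.41 on the LID RNAi arrays, against 11.39 and 11.39 on the GFP RNAi arrays and 11.41 and 11.45 on those of wild type. Over the 6 arrays these spanned 0.13 and 0.08, and the spread of the second (SD 0.03) was lower than that of all but 1.21% of probe sets. The remaining probe set, 1625620_a_at, read 8.94 and 8.89 on the LID RNAi arrays, against 9.69 and 9.37 on the GFP RNAi arrays and 8.40 and 9.79 on those of wild type. The wild type arrays were thus the lowest and the highest of the 6, and both LID RNAi arrays lay below both GFP RNAi arrays. Sxl transcripts are made in both sexes and differ by splicing and promoter use, and which of them each probe set matches was not analysed here.

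For Sxl 1625620_a_at the group means were 8.91 ± 0.03 for LID RNAi, 9.53 ± 0.23 for GFP RNAi and 9.09 ± 0.98 for wild type (SD, n = 2). LID RNAi stood at -0.61 ± 0.47 (SE) against GFP RNAi, 65.3% of the GFP RNAi level, with a 95% interval from -1.83 to 0.61 (limma adjusted p = 0.679). In a fit to these 4 arrays alone, which leaves out the wide wild type pair, the adjusted p was 0.335. In that fit Sxl 1625620_a_at was the 1 member with an unadjusted p under 0.05 (limma), as were 1938 of all 18769 probe sets. The differences were -0.18 for LID RNAi against wild type and 0.43 for GFP RNAi against wild type. Without wild type replicate 1 these became -0.88 and -0.26, and without wild type replicate 2 they became 0.51 and 1.13, so the direction depended on the array kept.

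The splicing regulator gene tra read 11.89 and 11.49 on the LID RNAi arrays, against 11.83 and 11.67 on the GFP RNAi arrays and 11.61 and 11.92 on those of wild type. Its groups overlapped, and 95.8% of its sum of squares over the 6 arrays lay between arrays of one group. It differed by -0.06 ± 0.19 (SE) between LID RNAi and GFP RNAi, with a 95% interval from -0.54 to 0.42.

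At the end of the cascade, the dsx probe set 1640799_at read 11.06 and 11.04 on the LID RNAi arrays, against 11.18 and 11.25 on the GFP RNAi arrays and 11.21 and 11.09 on those of wild type. The LID RNAi arrays were the 2 lowest. The difference was -0.17 ± 0.08 (SE) against GFP RNAi, which was the member with the lowest p in that comparison (unadjusted 0.0872, limma adjusted p = 0.498), and -0.10 ± 0.08 (SE, adjusted p = 0.586) against wild type. The dsx probe set 1623776_s_at read 9.56 and 9.25 on the LID RNAi arrays, against 9.96 and 9.62 on the GFP RNAi arrays and 8.63 and 10.05 on those of wild type. As with Sxl 1625620_a_at, wild type held the lowest and the highest array, and the LID RNAi arrays lay below the GFP RNAi arrays.

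For dsx 1623776_s_at the means were 9.41 ± 0.22 for LID RNAi, 9.79 ± 0.24 for GFP RNAi and 9.34 ± 1.001 for wild type (SD, n = 2). LID RNAi stood at -0.38 ± 0.49 (SE) against GFP RNAi, with a 95% interval from -1.65 to 0.88 (limma adjusted p = 0.809). It stood at 0.07 against wild type, and GFP RNAi at 0.45 against wild type. Without wild type replicate 1 the last 2 values became -0.64 and -0.26, and without wild type replicate 2 they became 0.77 and 1.16. The male and female ends of dsx mRNA are spliced from different exons, and which end this probe set matches was not analysed here.

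**Figure D2:**
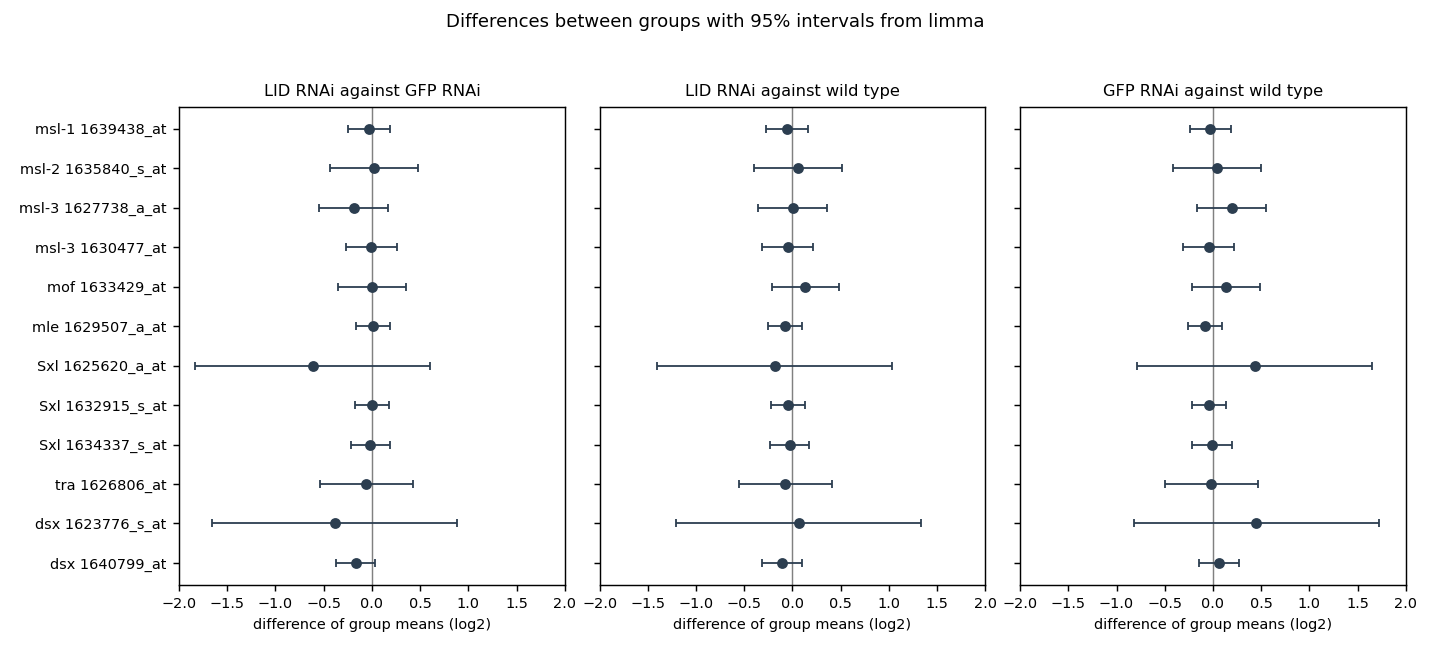
Difference of group means (log2, first group minus second) for the 12 member probe sets in the 3 comparisons, with 95% intervals from limma. Every interval crosses 0, and those of Sxl 1625620_a_at and dsx 1623776_s_at are the widest.

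Read over whole groups, 3 of the 12 member probe sets had arrays that did not overlap between LID RNAi and GFP RNAi, Sxl 1625620_a_at and both of dsx, each lower in LID RNAi. Over all probe sets 41.8% did not overlap, and 20.7% were lower. Between LID RNAi and wild type 3 did not overlap (mle, Sxl 1632915_s_at and dsx 1640799_at, all lower in LID RNAi), against 47.1% of all probe sets and 26.4% lower, and between GFP RNAi and wild type 3 did not (msl-3 1627738_a_at higher, mle and Sxl 1632915_s_at lower), against 45.6%, with 19% higher and 26.7% lower. The median difference of the member probe sets was -0.02 between LID RNAi and GFP RNAi, -0.05 between LID RNAi and wild type and 0.01 between GFP RNAi and wild type. Over all probe sets it was 0.01, -0.01 and -0.02 in the same comparisons. The median absolute difference of the members was 0.02, 0.06 and 0.05, against 0.12, 0.14 and 0.11 over all probe sets.

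For Sxl 1625620_a_at and dsx 1623776_s_at, 72.0% and 82.4% of the sum of squares over the 6 arrays lay between arrays of one group. For Sxl 1632915_s_at and dsx 1640799_at that share was 37.0% and 25.2%, and for mle 15.9%. It was higher than in either of the pair for msl-2 (97.3%), tra (95.8%), Sxl 1634337_s_at (92.3%) and msl-3 1630477_at (90.6%). With 3 groups of 2 arrays, most of the sum of squares lies within groups on average even where the groups do not differ. A share of that size was thus not particular to the pair, which stood out by the size of its wild type gap. In wild type the 2 arrays differed by -1.39 for Sxl 1625620_a_at and by -1.42 for dsx 1623776_s_at (replicate 1 minus replicate 2), so that replicate 1 read 38.1% and 37.5% of the level of replicate 2. Of 18769 probe sets, 119 (0.634%) differed between the wild type arrays by at least as much as the Sxl probe set in either direction, and 110 (0.586%) by at least as much as the dsx probe set. The median absolute gap over all probe sets was 0.11 in wild type.

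In the other groups the same 2 probe sets differed less. For Sxl 1625620_a_at, replicate 1 minus replicate 2 was 0.05 in LID RNAi and 0.32 in GFP RNAi, at percentiles 19.7 and 83.4 of the absolute gap over all probe sets. For dsx 1623776_s_at it was 0.31 in LID RNAi and 0.34 in GFP RNAi, at percentiles 74.4 and 85.4. The next largest wild type gaps among members were 0.40 for msl-2, -0.31 for tra and 0.28 for mof, at percentiles 89.9, 84.8 and 81.4. The wild type gap of tra ran the way of these 2 probe sets, with the lower level on replicate 1, and those of msl-2 and mof ran the opposite way. The other dsx probe set, 1640799_at, also ran the opposite way, at 0.12. The other Sxl probe sets, 1634337_s_at and 1632915_s_at, ran the way of the pair, at -0.13 and -0.03.

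**Figure D3:**
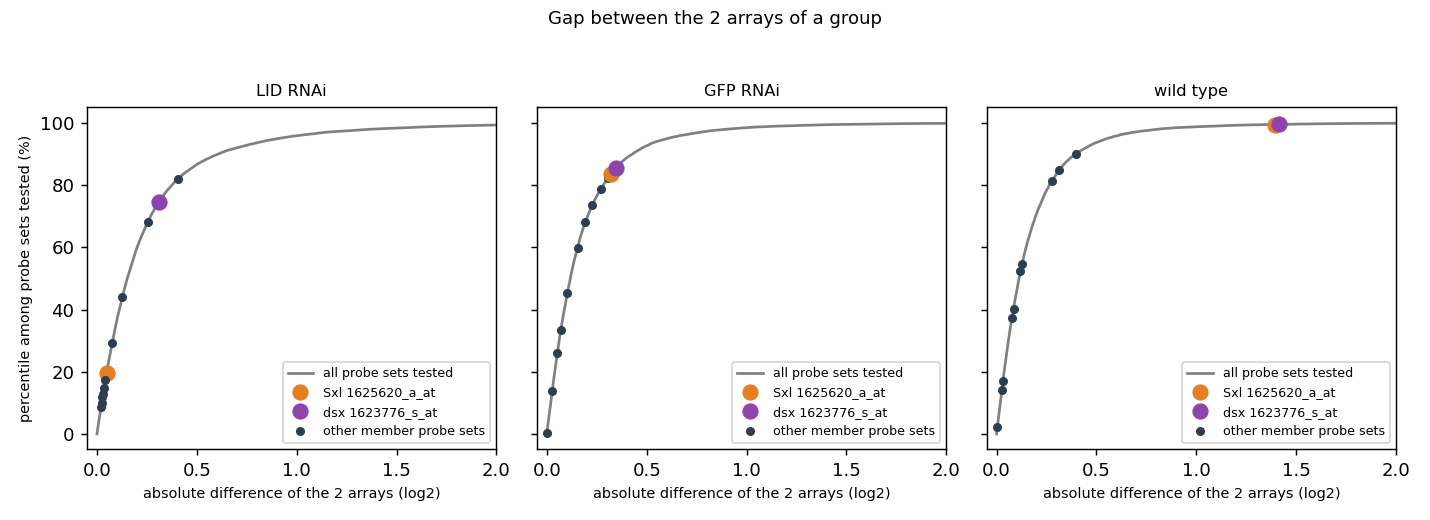
Absolute difference between the 2 arrays of a group (log2, horizontal axis) against its percentile among the 18769 probe sets tested (vertical axis), for all probe sets as a grey line and for the members as points. In wild type, Sxl 1625620_a_at and dsx 1623776_s_at sit at 1.39 and 1.42, at percentile 99.4, while in the RNAi groups they lie at 0.34 or less.

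The pair moved together across all arrays, not in wild type alone. Both probe sets ranked the 6 arrays in the same order, from wild type replicate 2 at the top through GFP RNAi replicates 1 and 2 and LID RNAi replicates 1 and 2 to wild type replicate 1. After each was centred on its own mean, Sxl 1625620_a_at and dsx 1623776_s_at differed by a root mean square of 0.14 over the 6 arrays. Among the 4519 other probe sets whose SD was at least 0.5 times that of the Sxl probe set, the dsx probe set was the one most like it, ahead of the next at 0.21. Among the 4667 compared with the dsx probe set, the Sxl probe set was the one most like it, ahead of the next at 0.22. The arrays share amplification and RMA normalization, and this likeness was looked at after the values were seen, so it is a description of these 6 arrays. LID RNAi replicate 1 fitted the common pattern least, with the dsx value 0.29 above the Sxl value after centring, against differences between -0.10 and 0.03 on the other arrays.

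**Figure D4:**
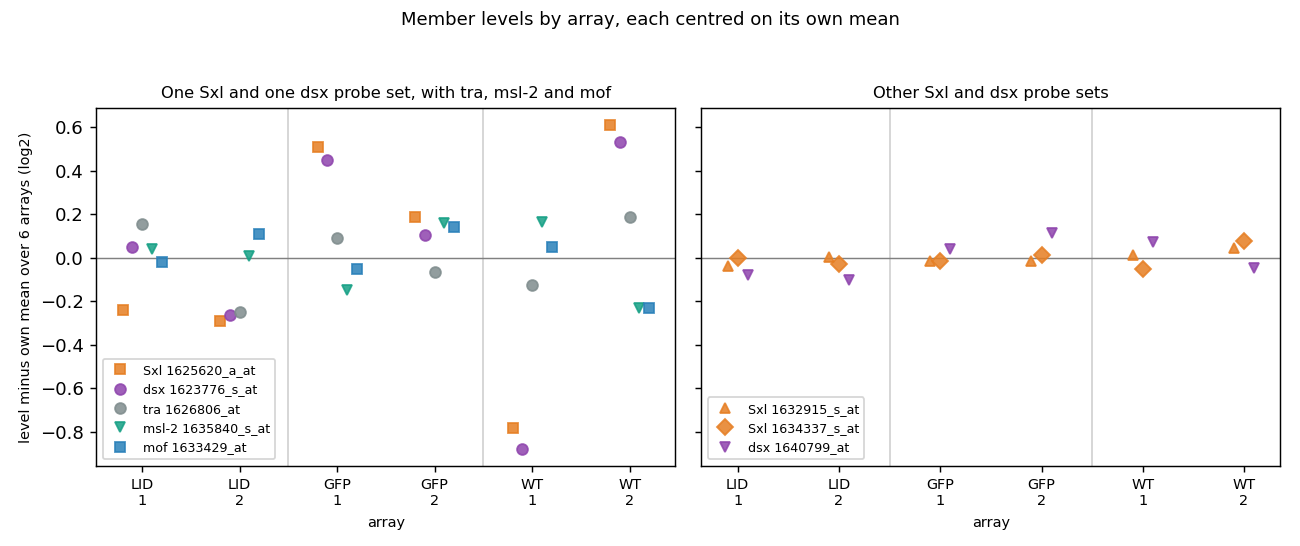
Level of member probe sets on each array minus their own mean over the 6 arrays (log2). Left, Sxl 1625620_a_at (orange squares) and dsx 1623776_s_at (purple circles) run together from -0.78 and -0.88 on wild type replicate 1 to 0.61 and 0.54 on wild type replicate 2, with tra, msl-2 and mof in smaller excursions; right, the other Sxl and dsx probe sets stay within 0.11 log2 units of their means.

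Among the complex members the order of the wild type arrays was mixed. The msl-2 transcript was highest on wild type replicate 1 and lowest on wild type replicate 2, and GFP RNAi replicate 1 was its second lowest array, at -0.15 from its mean, where Sxl and dsx stood at 0.51 and 0.45. For mof, wild type replicate 2 was lowest, at -0.23. By contrast msl-1 and msl-3 1630477_at read lower on wild type replicate 1, as those 2 probe sets did, with gaps of -0.09 and -0.08. For mle and msl-3 1627738_a_at the wild type gaps were 0.004 and 0.03. No test was made of the order.

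Outside the members, the named genes whose arrays ran most like Sxl 1625620_a_at were Gld (glucose dehydrogenase), lncRNA:CR33218, Eig71Eg, CG13305 and DIP-alpha (a cell surface protein of the immunoglobulin family), at root mean squares from 0.26 to 0.29. Those most like dsx 1623776_s_at were CG1835, Cyp313a4 (a cytochrome P450), Hesr, eEF1alpha2 (a translation elongation factor) and lncRNA:CR33218, at 0.22 to 0.29. CG1835 read 8.13 and 7.97 on the LID RNAi arrays, against 8.53 and 8.20 on the GFP RNAi arrays and 7.13 and 8.06 on those of wild type. It shared the low reading on wild type replicate 1 but was highest on GFP RNAi replicate 1. The mean levels of lncRNA:CR33218, Eig71Eg and Cyp313a4 were 4.79, 3.72 and 4.21, within background.

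Markers of other tissues also differed between the 2 wild type arrays, and in both directions. The 10 haemocyte markers, all measured, summed to 23345 and 19338 linear units on the LID RNAi arrays, 12877 and 14954 on the GFP RNAi arrays, and 14794 and 9945 on wild type replicates 1 and 2. The 3 measured fat body markers of 6 (Lsp2, Fbp1, Fbp2) summed to 14355 and 5414 on the LID RNAi arrays, 10938 and 7889 on the GFP RNAi arrays and 11798 and 7763 on those of wild type. Salivary gland markers ran the other way in wild type, with 4384 and 9586 on the LID RNAi arrays, 7274 and 3867 on the GFP RNAi arrays and 4666 and 5403 on the wild type arrays. Among the markers of other tissues, lz, a Runx gene of crystal cells, was called higher in LID RNAi than in wild type (limma adjusted p = 0.0346). It read 5.47 and 5.75 on the LID RNAi arrays, against 3.54 and 4.25 on the GFP RNAi arrays and 3.55 and 3.28 on those of wild type. The salivary glue gene ng1 was called higher in LID RNAi than in GFP RNAi (adjusted p = 0.0338) and wild type (adjusted p = 0.00846). It read 5.36 and 5.41 on the LID RNAi arrays, against 3.20 and 3.02 on the GFP RNAi arrays and 2.48 and 2.86 on those of wild type. For both genes the GFP RNAi and wild type arrays were below background, so no size of the difference is given. With 1 array left out, the call of lz ended without either LID RNAi or either wild type array (adjusted p from 0.0670 to 0.189). That of ng1 against GFP RNAi ended without any 1 of the 6 arrays (0.0595 to 0.227), and that against wild type was kept each time (0.0350 to 0.0483). Single genes were high on wild type replicate 1 alone. The largest excess was that of CG32751, at 7.95 against 2.77 to 3.04 on the other 5 arrays. Others were Lectin-galC1, at 10.73 against 4.82 to 6.09, and nerfin-1, a zinc finger gene of neural precursors, at 8.77 against 4.26 to 5.33. Wing disc markers summed to 45918 on wild type replicate 1 and 48819 on replicate 2. The gap between the ends of Act5C transcripts, a sign of RNA integrity, was 1.09 and 1.45 on the LID RNAi arrays, 1.34 and 1.20 on the GFP RNAi arrays and 1.11 and 1.16 on the wild type arrays. It was widest on LID RNAi replicate 2, the array that stood apart most often. The part of any of these in the Sxl and dsx readings was not tested, and in pooled discs fewer cells making a transcript and less RNA per cell cannot be told apart.

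**Figure D5:**
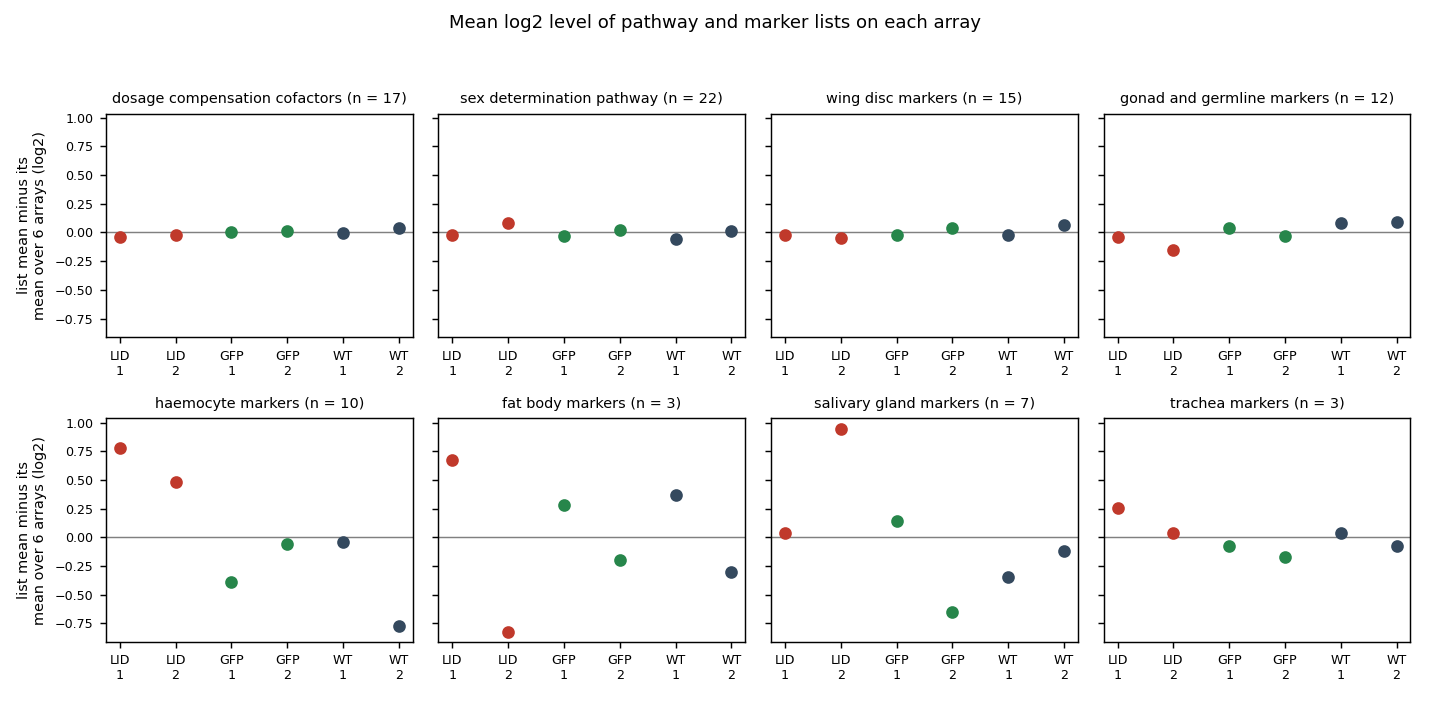
Mean log2 level of 8 gene lists on each array, minus the list's own mean over the 6 arrays. Both pathway lists and the wing disc markers stay within 0.08 of 0, whereas the haemocyte, fat body and salivary gland markers span 1.55, 1.501 and 1.60 log2 units.

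Gonads carry sex-specific RNA of their own. Of 13 gonad and germline markers 12 were measured, of which 8 were above background in no group and 3 (bam, bgcn and dj) in every group. The germ cell differentiation gene bam read 7.16 and 6.14 on the LID RNAi arrays, against 7.04 and 7.27 on the GFP RNAi arrays and 6.88 and 6.96 on those of wild type. Its partner gene bgcn read 6.51 and 6.299 on the LID RNAi arrays, against 6.47 and 6.22 on the GFP RNAi arrays and 7.15 and 7.03 on those of wild type. Their wild type arrays differed by -0.08 and 0.11 (replicate 1 minus replicate 2). The third, dj, read 4.46 and 5.78 on the LID RNAi arrays, against 4.94 and 4.79 on the GFP RNAi arrays and 4.81 and 5.09 on those of wild type. Its wild type arrays differed by -0.28 and its LID RNAi arrays by -1.33. The germ cell helicase gene vas read 3.96 and 5.29 on the LID RNAi arrays, against 4.30 and 4.91 on the GFP RNAi arrays and 4.06 and 4.84 on those of wild type, and the testis tubulin gene betaTub85D read 4.39 and 4.11 on the LID RNAi arrays, 4.15 and 4.21 on the GFP RNAi arrays and 4.49 and 4.39 on those of wild type. The largest difference in the list, between LID RNAi and GFP RNAi, was that of aub, which encodes a piRNA-binding Argonaute (limma adjusted p = 0.192). It read 5.29 and 4.18 on the LID RNAi arrays, a mean of 4.73 that is not above background, against 6.396 and 6.47 on the GFP RNAi arrays and 6.47 and 6.28 on those of wild type, so the size of the difference is not given. All 5 measured Y-linked genes of 11 listed (kl-2, kl-3, kl-5, ARY and Pp1-Y2) were at or below background on every array. The sex of the discs was not read from them, since whether male wing discs make these RNAs was not tested.

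In the wider dosage compensation machinery no gene was called. Of 21 listed cofactors 17 were measured, and 0 rose and 0 fell in any comparison in limma. At an unadjusted p of 0.05 the number was 1 between LID RNAi and GFP RNAi, 3 between LID RNAi and wild type and 0 between GFP RNAi and wild type. Over all probe sets 12.4%, 16.9% and 11.4% had such a p in these comparisons. Counted by 1 probe set per gene, as the cofactors were, 1730, 2245 and 1504 of 11982 genes had it. The adjusted threshold was passed by 0.469%, 2.34% and 0.863% of all probe sets. Of the 11982 genes, 24 rose and 42 fell between LID RNAi and GFP RNAi. Against wild type, 116 rose and 210 fell in LID RNAi, and 64 rose and 56 fell in GFP RNAi. The largest difference between LID RNAi and GFP RNAi was that of Pof, whose protein coats the small chromosome named 4. It read 9.48 and 9.52 on the LID RNAi arrays, against 9.84 and 9.69 on the GFP RNAi arrays and 9.74 and 9.88 on those of wild type. Both LID RNAi arrays were thus below the other 4, at -0.26 ± 0.09 (SE, limma adjusted p = 0.372) against GFP RNAi and -0.31 ± 0.09 (SE, adjusted p = 0.203) against wild type.

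The histone kinase gene JIL-1, whose protein is enriched on the male X, read 10.09 and 10.04 on the LID RNAi arrays, against 10.23 and 10.34 on the GFP RNAi arrays and 10.36 and 10.51 on those of wild type. The 3 groups did not overlap and LID RNAi was lowest. The difference against wild type was -0.37 ± 0.09 (SE, limma adjusted p = 0.143). The median difference of the 17 cofactors was -0.04 between LID RNAi and GFP RNAi, -0.02 between LID RNAi and wild type and -0.01 between GFP RNAi and wild type, beside 0.00, -0.02 and -0.02 over all 11982 genes with a probe set of their own.

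The other sex determination genes likewise held no call. Of 26 listed, 22 were measured, and 0 rose and 0 fell in any comparison in limma. At an unadjusted p of 0.05 there was 1 between LID RNAi and GFP RNAi and 3 in each comparison with wild type. The unadjusted shares over all probe sets were 12.4% between LID RNAi and GFP RNAi, 16.9% between LID RNAi and wild type and 11.4% between GFP RNAi and wild type. The adjusted shares were 0.469%, 2.34% and 0.863%. With 1 probe set per gene, as in this list, 1730, 2245 and 1504 of 11982 genes had an unadjusted p under 0.05. The largest difference between LID RNAi and GFP RNAi was that of ix, which encodes a partner of the female Dsx protein. It read 11.67 and 11.51 on the LID RNAi arrays, against 11.29 and 11.29 on the GFP RNAi arrays and 11.39 and 11.46 on those of wild type, at 0.30 ± 0.09 (SE, limma adjusted p = 0.285) against GFP RNAi. The LID RNAi arrays were above all others.

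The splicing partner of Tra, encoded by tra2, read 11.05 and 10.83 on the LID RNAi arrays, against 11.11 and 11.09 on the GFP RNAi arrays and 11.18 and 11.28 on those of wild type, with LID RNAi lowest, at -0.29 ± 0.10 (SE, adjusted p = 0.252) against wild type. The fru gene, which Tra also splices, read 10.85 and 11.36 on the LID RNAi arrays, against 10.77 and 11.46 on the GFP RNAi arrays and 10.62 and 10.34 on those of wild type. Its spread within both RNAi groups exceeded 0.5, and the arrays of each RNAi group lay above those of wild type (0.63 ± 0.30, SE, adjusted p = 0.395 for LID RNAi). The median difference of the 22 genes was 0.01, 0.03 and -0.04 in the comparisons of LID RNAi with GFP RNAi, LID RNAi with wild type and GFP RNAi with wild type.

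Of genes that Dsx regulates in other tissues, all 7 listed were measured and 0 passed in limma, with 0, 2 and 1 at an unadjusted p of 0.05 in the same comparisons. Over all probe sets 12.4%, 16.9% and 11.4% had such an unadjusted p, and 0.469%, 2.34% and 0.863% passed. With 1 probe set per gene, as for these 7, the unadjusted numbers were 1730, 2245 and 1504 of 11982 genes. The yolk protein gene Yp2 had the largest difference between LID RNAi and GFP RNAi, at 0.45 ± 0.20 (SE, adjusted p = 0.483). The abdominal patterning gene bab1 read 8.61 and 8.44 on the LID RNAi arrays, against 8.60 and 8.80 on the GFP RNAi arrays and 8.99 and 9.10 on those of wild type, at -0.51 ± 0.11 (SE, adjusted p = 0.114) for LID RNAi against wild type. Its wild type arrays were the 2 highest and lay close together, unlike those of dsx 1623776_s_at.

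On the chromosome that the complex binds, the medians lay near 0. Over 1529 X-linked genes above background the median difference was 0.00 between LID RNAi and GFP RNAi, -0.01 between LID RNAi and wild type and -0.01 between GFP RNAi and wild type. Over 7344 genes on arms 2L, 2R, 3L and 3R it was 0.00, -0.02 and -0.02. Between LID RNAi and GFP RNAi, 1 X-linked gene passed (0.0654%), against 61 on the autosome arms (0.831%). Between LID RNAi and wild type 2.75% of X-linked genes passed, against 3.44% on the autosome arms, and between GFP RNAi and wild type 1.05% against 1.25%. No test was made of these differences. The wild type arrays, which differed most in Sxl and dsx, differed by a median of -0.05 over X-linked genes (replicate 1 minus replicate 2) and of 0.00 over the autosome arms. In GFP RNAi these medians were -0.03 and -0.02, and in LID RNAi 0.02 and 0.03.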

How the data were processed

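Whole wing discs were measured on arrays, 1 per sample, after isothermal SPIA amplification of 25 ng of RNA, per the labels' protocols. The deposited values are log2 levels made by the authors with RMA, per the submitters' processing notes, whose version is not given in the sources used here. Of 18952 probe sets, 183 controls were left out. Of the 18769 tested, 13647 had 1 gene symbol, 402 several and 4720 none, and 13544 of the first were placed on a chromosome through the RefSeq gene table.

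Group means were estimated together from the 6 arrays in limma 3.58.1 (R 4.3.3), two-sided, with Benjamini-Hochberg adjustment over all probe sets and a threshold of 0.05. It was tested on simulated data. The number of arrays limits the precision. All member probe sets were named. Other lists used 1 probe set per gene, that of the highest mean. In the haemocyte and salivary gland lists the called gene was named. In the cofactor, sex determination, Dsx target and gonad lists the gene with the largest difference between LID RNAi and GFP RNAi was named. Lists for genital and other discs, myoblasts and the nervous system were made but are not reported here. Of further genes, tra2, fru, JIL-1, bab1, vas, betaTub85D, bam, bgcn, dj, nerfin-1, Lectin-galC1 and CG32751 were chosen after their values were seen. The rule for genes of like pattern, meant for roX1 and roX2, was applied to the 2 members of largest SD instead. Members and lists were chosen with earlier results of these data known.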

Additional observations from a re-analysis of the deposited data

How the results depend on the processing

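No member was called under any of 432 combinations of member comparison and alternative, the lowest adjusted p being 0.226 (limma). The 432 are not all distinct. Leaving out an array of the group not compared gives the same fit as using only the 2 groups compared. Between LID RNAi and GFP RNAi, 1 member, Sxl 1625620_a_at, had an unadjusted p under 0.05 in that fit. Uncalled member differences changed sign in 34 of these combinations with 1 array left out and in 14 others, all 14 under median centring or quantile normalization, where the values after the change were at most 0.05. The counts over all probe sets, which are the background for the members, moved more. In the order LID RNAi against GFP RNAi, then LID RNAi and then GFP RNAi against wild type, they were 88, 439 and 162 as reported. With an intensity trend they were 247, 784 and 325, and with only the 2 groups compared 3, 99 and 90. With probe sets above background alone, the count for LID RNAi against GFP RNAi was 154. Leaving out 1 array each gave 0 to 6, 24 to 324 and 4 to 90, a single remaining array being taken to have the spread of the other groups. The 0 arose without LID RNAi replicate 2, GFP RNAi replicate 1 or GFP RNAi replicate 2 (2197, 1773 and 1644 at an unadjusted p of 0.05). The trend also called 2 pathway genes between LID RNAi and wild type, nito at 0.17 (adjusted p = 0.0404) and Iswi at -0.21 (adjusted p = 0.0455), against adjusted p of 0.290 and 0.238 as reported. The cause of these shifts was not tested. With the replicate block the counts were 12, 200 and 41. Replicate differences correlated across probe sets at 0.298 (LID RNAi and GFP RNAi), 0.223 (LID RNAi and wild type) and 0.0646 (GFP RNAi and wild type). All were positive, and the main fit did not pair the arrays by replicate number. Whether the numbers do pair the arrays cannot be settled from these values.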
